A study of Mus musculus with 21 samples.

Results

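The mitochondrial solute carriers are described here across 4 groups of mouse hearts. The members were all genes of the deposited gene matrix whose symbol is Slc25a followed by a number and nothing else, which gave 45 of 19096 genes. Of these, 40 had enough reads to be tested. The samples were 21 hearts of male C57BL/6NJ mice, 1 library each, from a study of heart failure with preserved ejection fraction (HFpEF), in which a high-fat diet and overexpressed renin are combined to produce the disease. Chow control mice (n = 4) ate chow and received the null vector, chow renin mice (n = 6) ate chow and received an adeno-associated virus carrying renin (AAV-Renin), high-fat control mice (n = 6) ate the D12492i diet, with 60% of its energy from fat, and received the null vector, and high-fat renin mice (n = 5) had both that diet and AAV-Renin. The mice were 8 to 10 weeks old at assignment to a diet, the diet lasted 10 weeks, and hearts were taken 6 weeks after the injection. The sample titles call the null vector groups "novirus". The cell types reached by the vector and its promoter are not given in the sources used here.

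The inner mitochondrial membrane is closed to nearly all metabolites, and the SLC25 carriers are the proteins that move them across it. Most exchange 1 solute for another: ADP enters for ATP, phosphate enters with a proton, and aspartate, glutamate, malate, oxoglutarate, acylcarnitines, cofactors and nucleotides each have carriers of their own. In the heart, which depends on mitochondrial ATP and burns mainly fatty acids, the ADP/ATP carrier, the phosphate carrier, the carnitine/acylcarnitine carrier and the carriers of the malate-aspartate shuttle are the family's best known members.

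Library totals ranged from 18.7 to 21.4 M reads (mega reads) in chow control and from 22.8 to 29.3 M in the other groups, so depth and group cannot be told apart in comparisons with chow control. All 9 cardiomyocyte markers were found, as the label heart implies. Their summed level ranged from 57829 to 70044 CPM (read counts scaled to library size, counts per M) in control and 52958 to 56334 in renin hearts on chow, and from 54766 to 63732 in control and 47530 to 54276 in renin hearts on the high-fat diet. Both renin groups lay below every chow control heart. Of 4 skeletal muscle markers, Myh4, Myh2 and Tnnt3 stayed below 1 CPM in every heart. The fourth, the skeletal actin Acta1, which heart muscle also expresses, measured 670.1 to 2499.4 CPM in high-fat renin, above the 142 to 422 of chow control and the 56.5 to 184 of high-fat control and overlapping the 41.9 to 724 of chow renin. The 4 fibroblast markers summed to 627 to 939 CPM in high-fat renin and 415 to 626 in chow renin, without overlap, and to 444 to 789 in chow control and 449 to 887 in high-fat control. Taken singly, Col1a1 and Col1a2 did not overlap between the renin groups, while Dcn and Pdgfra did. The part of Acta1 and of the fibroblast markers in the results was not tested. Atrial markers were high in 5 hearts, 1 in each group and a further 1 in chow renin (chow control replicate 3, chow renin replicates 1 and 3, high-fat control replicate 3 and high-fat renin replicate 3). Markers of the central nervous system summed to 204.5 to 336 CPM in chow renin against 49.4 to 89.2 CPM in the other 3 groups, and all 11 of these genes were higher in chow renin than in chow control. A score of clock genes, the mean log2 CPM of genes of the day minus that of genes of the night, ranged from 3.41 to 3.73 in chow control, above all hearts of chow renin (2.93 to 3.26) and of high-fat renin (2.21 to 3.25), and from 3.16 to 3.54 in high-fat control, which overlapped all 3. In bulk tissue, fewer cells of a type and less RNA per cell cannot be told apart.

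Levels were compared between genes as TPM, a share of all transcripts that is corrected for transcript length. A single gene, Slc25a4, the ADP/ATP carrier isoform of heart and skeletal muscle, held 50.8% of the family's TPM averaged over the 21 hearts. On chow it measured 2012 ± 187 TPM (SD, n = 4) without and 1862 ± 99.1 (n = 6) with renin, and on the high-fat diet 1639 ± 119.6 (n = 6) without and 1599.6 ± 140.7 (n = 5) with renin. The phosphate carrier Slc25a3 followed with a mean of 776 TPM, then the oxoglutarate/malate carrier Slc25a11 with 226.1, the ubiquitous ADP/ATP carrier Slc25a5 with 149.4 and the carnitine/acylcarnitine carrier Slc25a20 with 110. Together the first 5 held 87.1% of the family's TPM. The next 5 were the aspartate/glutamate carrier Slc25a12 (68.6 TPM), Slc25a34 (61.5 TPM; its substrate in the heart is not settled), Slc25a39 (49.9 TPM), which is needed for mitochondrial glutathione, the second aspartate/glutamate carrier Slc25a13 (33.6 TPM) and the glutamate carrier Slc25a22 (28 TPM). The first 10 together held 94.0%. By role, carriers of ATP, ADP and phosphate (7 genes) held 78.1% of the family's TPM, carboxylate carriers (4 genes) 6.84%, cofactor and nucleotide carriers (11 genes) 4.46%, amino acid carriers (9 genes) 4.39% and the uncoupling-protein relatives Slc25a14, Slc25a27 and Slc25a30 0.154%.

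The levels spanned several orders of magnitude: 5 members had a mean of at least 100 TPM, 12 lay between 10 and 100, 22 between 1 and 10 and 6 below 1. Neighbours in this order were often within their spread. In high-fat control, for example, Slc25a5 measured 135 ± 10.9 TPM (n = 6) and Slc25a20 118 ± 13.3 TPM (n = 6). At the bottom, 5 members had too few reads to be tested: Slc25a43 (106 reads in all 21 libraries together), Slc25a31, the ADP/ATP carrier of male germ cells (89), the ornithine carrier Slc25a2 (73), the oxodicarboxylate carrier Slc25a21 (46) and Slc25a48 (16). The 16 reads of Slc25a48 came 0 from control and 1 from renin hearts on chow, and 5 from control and 10 from renin hearts on the high-fat diet, too few for a comparison. Summed over all members, the family took 0.383% ± 0.026 of TPM in control (n = 4) and 0.358% ± 0.014 in renin hearts (n = 6) on chow. On the high-fat diet it took 0.331% ± 0.016 in control (n = 6) and 0.325% ± 0.020 in renin hearts (n = 5). This share has the mitochondrially encoded transcripts in its denominator.

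**Figure D1:**
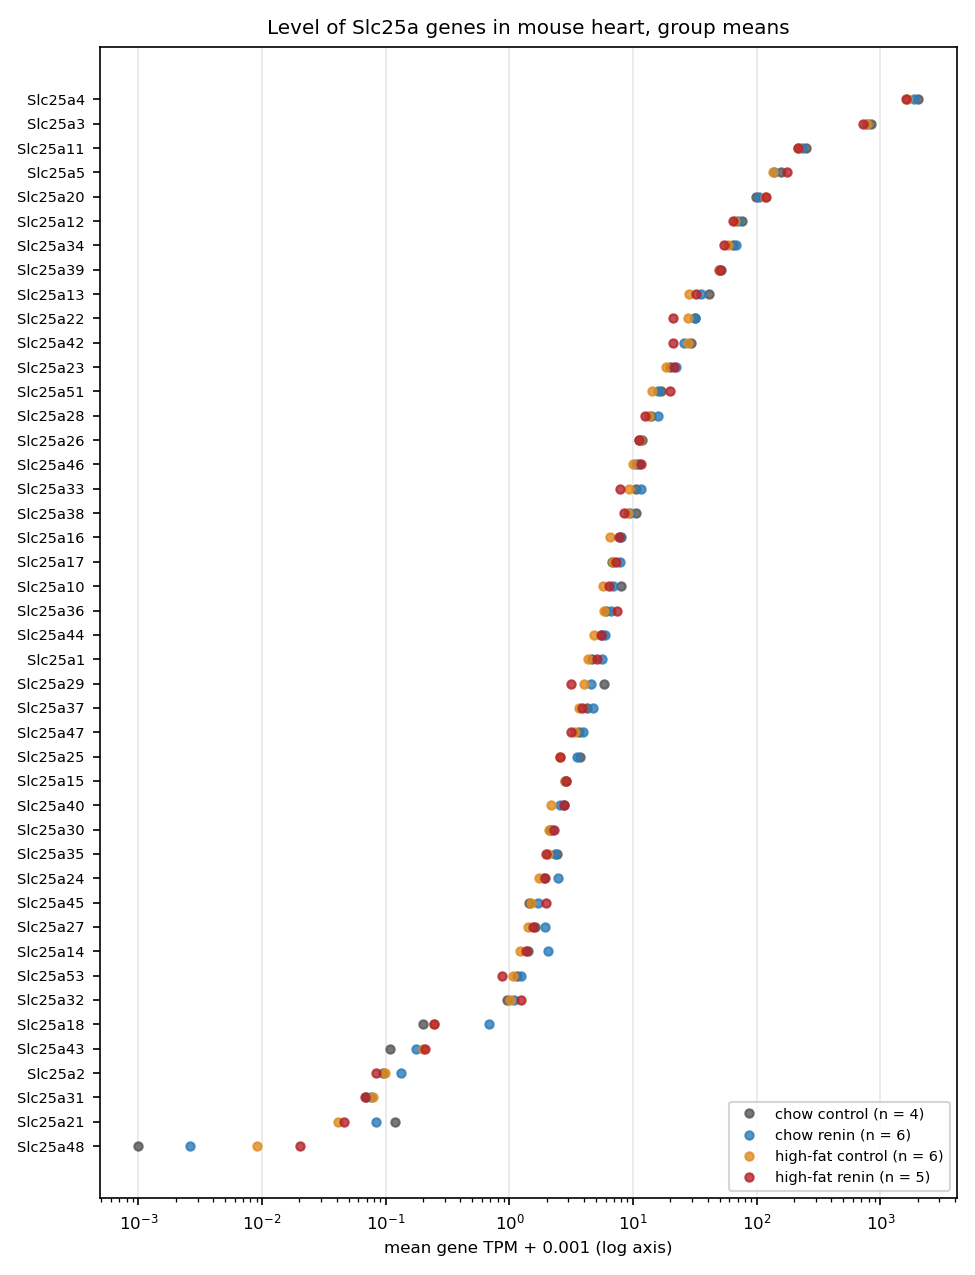
Mean TPM plus 0.001 of 44 Slc25a genes in each group (x, log axis), ordered from the highest to the lowest mean over all hearts (y); each point is a group mean (n = 4, 6, 6 and 5). Slc25a4 stands at the top and 6 genes lie below 1 TPM. For Slc25a18 the chow renin point lies to the right of the other 3 groups.

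Models annotated as other than protein-coding held a large part of the TPM of several members, and 3 of these, chosen after the values were seen, are given. Slc25a4-202, annotated as a retained intron, held 41% ± 1.89 of the Slc25a4 TPM in chow control (n = 4) and 40.4% ± 3.06 in high-fat renin (n = 5). A transcript of Slc25a12 annotated as a target of nonsense-mediated decay held 59.5% ± 3.67 and 60.5% ± 2.50 of the Slc25a12 TPM in the same groups. For Slc25a37, mitoferrin-1, the coding transcript Slc25a37-201 held 49.9% ± 15.6 in control and 39.9% ± 6.19 in renin hearts on chow, and 52.1% ± 6.23 in control and 33.4% ± 9.41 in renin hearts on the high-fat diet, with wide and overlapping spreads. These shares come from the authors' read assignment among overlapping models and were not tested.

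The phosphate carrier gene has a pair of mutually exclusive coding exons, of which the A exon is known for heart and skeletal muscle and the B exon for most other tissues. Both are shown because the reads distinguish them. They lie on the minus strand of chromosome 10 (GRCm38, GENCODE M21), exon A (125 bases, transcript Slc25a3-206) at chr10:91122207-91122331 and exon B (122 bases, transcript Slc25a3-201) at chr10:91121922-91122043. The letters are written 5′ to 3′ in lower case, with no part marked.
Slc25a3 exon A: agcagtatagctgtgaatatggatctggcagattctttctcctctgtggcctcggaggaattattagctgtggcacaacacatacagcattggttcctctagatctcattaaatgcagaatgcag
Slc25a3 exon B: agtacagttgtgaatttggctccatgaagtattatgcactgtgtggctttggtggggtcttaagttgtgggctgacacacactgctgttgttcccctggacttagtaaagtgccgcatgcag
Of the summed TPM of the Slc25a3 transcripts with exon A or exon B, those with exon A made up 95.7% ± 0.36 in chow control (n = 4, 95.3% to 96.1%). Their share was 94.8% ± 0.50 with renin on chow (n = 6, 94.4% to 95.7%), 95.7% ± 0.72 on the high-fat diet alone (n = 6, 94.3% to 96.3%) and 95% ± 0.58 with both (n = 5, 94.3% to 95.8%). Transcripts with exon A thus outnumbered those with exon B in every heart, and the ranges of all 4 groups overlapped. The B form measured 34.9 ± 2.33, 40 ± 3.89, 33.3 ± 6.37 and 35.3 ± 4.41 TPM in the order chow control, chow renin, high-fat control, high-fat renin.

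Promoter sequence is shown for 3 members with calls in at least 3 of the comparisons below: Slc25a3, which was lower with renin, Slc25a5, whose response to renin differed by diet, and Slc25a29, the member with the largest change between the combined model and chow control. Sequences are from RefSeq (GRCm38.p6), 5′ to 3′ on the gene's strand, and hold only upstream bases outside annotated exons. Slc25a3 is the stretch chr10:91124060-91124217 (minus strand, 158 bases). Slc25a5 is chrX:36795347-36795596 (plus strand, 250 bases). Slc25a29 is chr12:108835884-108836045 (minus strand, 162 bases), which is the whole gap between Slc25a29 and its neighbour Slc25a47, another member that is transcribed the other way from the same gap. Capitals mark matches to the NRF1-type motif GCGCNTGCG, the ETS-type motif CCGGAAG or TATAA on either strand.
Slc25a3: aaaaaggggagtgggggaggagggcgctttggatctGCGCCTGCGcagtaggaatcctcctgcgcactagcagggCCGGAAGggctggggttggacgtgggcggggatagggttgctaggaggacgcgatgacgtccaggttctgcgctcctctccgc
Slc25a5: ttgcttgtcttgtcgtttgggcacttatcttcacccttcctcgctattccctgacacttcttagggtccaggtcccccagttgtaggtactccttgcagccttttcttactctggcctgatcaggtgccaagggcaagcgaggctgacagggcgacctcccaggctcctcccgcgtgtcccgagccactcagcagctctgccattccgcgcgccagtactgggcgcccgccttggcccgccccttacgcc
Slc25a29: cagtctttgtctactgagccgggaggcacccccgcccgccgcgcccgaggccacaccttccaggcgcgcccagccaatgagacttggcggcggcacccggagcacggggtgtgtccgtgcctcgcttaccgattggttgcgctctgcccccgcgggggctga
The Slc25a3 stretch holds an NRF1-type and an ETS-type match, 2 motifs of factors known for nuclear genes of mitochondrial proteins, and the other two stretches hold neither. The RefSeq table had windows of 300 bases (250 before the start and 50 after) for 35 of the 45 members, and motifs were searched on both strands. NRF1-type matches were in 2 members (5.71%; Slc25a3 and Slc25a31) against 6.31% of all 32851 windows, and ETS-type matches in 6 (17.1%; Slc25a3, Slc25a4, Slc25a17, Slc25a20, Slc25a25 and Slc25a38) against 8.86%. The GC box GGGCGG was in 30 members (85.7%) against 35.7% of windows, the E-box CACGTG in 7 (20%) against 7.15%, and the cAMP response element TGACGTCA in 2 (5.71%) against 1.79%. TATAA was in 5 (14.3%) against 24.9%, and the ERR-type motif TNAAGGTCA in 0 against 1.28%. All windows include those of non-coding genes, so these shares describe letters and are not a test.

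For comparisons between groups, reads summed per gene were tested with the quasi-likelihood F test of edgeR, adjusted by Benjamini-Hochberg over 15216 genes, and genes with an adjusted p under 0.05 are named as called. The p-values measure only the spread between these hearts. Of the 40 tested members 18 (45%) were called in at least 1 of 6 comparisons and 22 in none, beside 33.6% of all genes called in at least 1. Of the 33 calls, 27 were below 0.5 in size on the log2 scale, and the median size of a called change was 0.29.

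The combined model, high-fat renin against chow control, had 5 members called of 40 (12.5%), 1 higher and 4 lower, beside 8.29% of all genes (4.05% higher, 4.25% lower). Renin on chow, chow renin against chow control, had 7 called (17.5%), 2 higher and 5 lower, beside 13.5% of all genes (10.1% higher, 3.36% lower). Diet alone, high-fat control against chow control, had 0 members called by edgeR, beside 0.0657% of all genes (0.0131% higher, 0.0526% lower), and 4 members had an unadjusted p under 0.05, as had 10.96% of all genes. In that comparison DESeq2 called 1 member, Slc25a20 (log2 fold change 0.37, adjusted p = 0.0481), and 0.719% of all genes. Renin on the high-fat diet, high-fat renin against high-fat control, had 6 called (15%), 2 higher and 4 lower, beside 11.1% (6.07% higher, 5.08% lower). Diet under renin, high-fat renin against chow renin, had 12 called (30%), 6 higher and 6 lower, beside 22.6% (9.80% higher, 12.8% lower). The interaction, which takes the change with renin under high-fat feeding and subtracts the change with renin under chow, had 3 called (7.5%), 2 higher and 1 lower, beside 10.4% (3.14% higher, 7.30% lower). Regardless of direction, the share of members lay above that of all genes in 4 of the 6 comparisons and below it for diet alone and the interaction. By direction, 12.5% of members were called lower with renin on chow against 3.36% of all genes, and 5% higher against 10.1%, and in the combined model 10% were lower against 4.25%. These shares are a description and were not tested, and the comparisons share groups with each other.

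Median log2 fold changes of the tested members lay close to 0. They were -0.04 in the combined model against 0.01 over all genes, -0.11 against -0.03 for renin on chow and -0.03 against 0.01 for diet alone. They were -0.03 against -0.01 for renin on the high-fat diet, -0.01 against 0.02 for diet under renin and 0.04 against 0.01 for the interaction. In CPM, the 2 groups did not overlap in any heart for 6 members in the combined model (10.0% of all genes), 8 for renin on chow (15.1% of all genes), 1 for diet alone (2.42%), 1 for renin on the high-fat diet (3.48%) and 5 for diet under renin (15.3%).

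Each of 2 covariates left 0 members called in some comparisons. With the clock score as a covariate, 0 members were called in the combined model and for renin on the high-fat diet, where 0 and 8 of all genes were called. With only the 2 groups compared, 0 members were called for renin on the high-fat diet as well, beside 3.81% of all genes in that fit. With the central nervous score, 0 were called for renin on chow, for diet under renin and for the interaction, where 23, 32 and 24 of all genes were called. The nervous score separated chow renin from the other 3 groups (3.46 to 4.15 against 1.43 to 2.17), so what goes with this score and what goes with chow renin cannot be told apart. The clock scores of both renin groups did not overlap with chow control, so that in the combined model and for renin on chow the clock score and the group cannot be told apart either. Those of high-fat renin and high-fat control overlapped. With the clock score, members were still called for renin on chow and for diet under renin. Their counts, with the shares of all genes, are given in the closing section on processing. Without the 5 hearts with high atrial markers, an alternative chosen after seeing the data, 3 of the 7 members were still called for renin on chow, Slc25a5 and Slc25a18 among them, beside 10.3% of all genes in that fit.

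**Figure D2:**
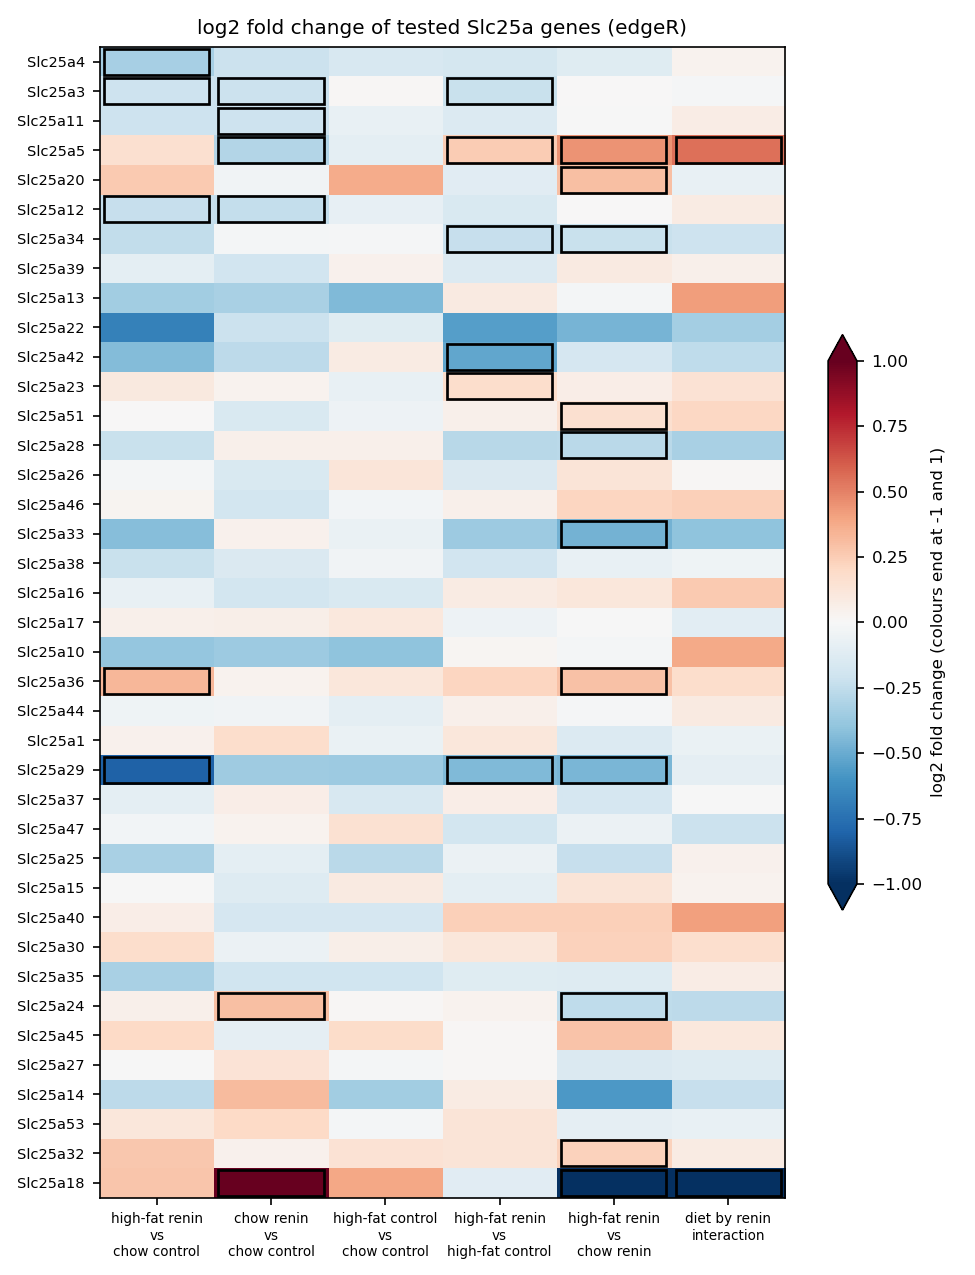
Log2 fold change (colour, ending at -1 and 1) of 39 tested Slc25a genes (y, ordered by mean TPM) in 5 comparisons of groups and the interaction (x); black frames mark an adjusted p under 0.05 in edgeR. Frames are in 17 genes; diet alone has none.

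Among the ADP/ATP and phosphate carriers, the highest genes of the family, Slc25a4 and Slc25a3 were lower in high-fat renin than in chow control, while Slc25a5 followed another pattern. Of 6 tested members of this role, 2 fell and 0 rose in the combined model, 2 fell and 1 rose for renin on chow, and 1 fell and 2 rose for renin on the high-fat diet. Of all genes, 4.25% fell and 4.05% rose in the first of these comparisons, 3.36% and 10.1% in the second and 5.08% and 6.07% in the third. In what follows, groups of 4 or 5 hearts are given heart by heart in CPM, in replicate order, and groups of 6 by their lowest, median and highest value. Each log2 fold change is given with its standard error. Unless TPM is named, statements that hearts overlap or do not overlap refer to CPM, and TPM can place groups differently.

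Slc25a4 exchanges matrix ATP for cytosolic ADP. It measured 3684, 3826, 2960.1 and 3484 CPM in chow control and 2883, 2869.8, 2692, 2685 and 2690.4 in high-fat renin. Chow renin hearts measured 2785, 3012 and 3301 CPM and high-fat control hearts 2750.0, 3225 and 3413. In mean CPM high-fat control (3126) lay above chow renin (3007), and in mean TPM below it (1639 against 1862). Every high-fat renin heart lay below every chow control heart in CPM. In TPM these 2 groups overlapped (1470 to 1840 against 1783 to 2211). The log2 fold change in the combined model was -0.34 ± 0.08, adjusted p = 0.012. In the parts of the model taken alone, renin on chow gave -0.21 ± 0.08, adjusted p = 0.0692 and diet alone -0.16 ± 0.08, adjusted p = 0.464, neither called. The call of the combined model was lost without chow control replicate 2 (adjusted p = 0.0564), and with the clock score the value was -0.37, adjusted p = 0.617. Chow control replicate 3, the lowest chow control heart for Slc25a4, was 1 of the 5 with high atrial markers. The summed cardiomyocyte markers, like Slc25a4, were lower in every high-fat renin heart than in any chow control heart, while Acta1 was higher; their part in the result was not tested.

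Slc25a3 brings phosphate into the matrix for ATP synthesis. It measured 1177, 1180.4, 996 and 1152 CPM in control and 933, 955 and 1023 in renin hearts on chow, and 1054, 1130.2 and 1238 in control and 949, 1018, 1005, 983 and 912 in renin hearts on the high-fat diet. Every high-fat renin heart lay below every high-fat control heart, while chow control replicate 3 alone reached into the range of both renin groups. Slc25a3 fell with renin on the high-fat diet (-0.22 ± 0.06, adjusted p = 0.0151), with renin on chow (-0.21 ± 0.06, adjusted p = 0.019) and in the combined model (-0.21 ± 0.06, adjusted p = 0.0398). Diet alone left its mean at 1137 ± 62.6 CPM (n = 6) against 1126 ± 87.6 (n = 4). In mean TPM, high-fat control (779 ± 24.4) and chow renin (777 ± 28.1) both lay below chow control (835 ± 45.7). The 2 scales thus differ on diet alone, and the reason was not tested. The call on the high-fat diet was lost without high-fat renin replicate 5 (adjusted p = 0.0562). That on chow was lost without chow control replicates 1, 2 and 4 and chow renin replicates 1, 3 and 5 (adjusted p = 0.058 to 0.115) and with upper-quartile factors (-0.18, adjusted p = 0.0503), and that of the combined model without chow control replicates 1, 2 and 4 and high-fat renin replicates 1, 2 and 5 (adjusted p = 0.0505 to 0.122).

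Slc25a5, the ubiquitous ADP/ATP carrier, had the smallest adjusted p of the interaction among the members. It measured 198, 203.6, 169 and 167 CPM in control and 136, 151 and 159 in renin hearts on chow, and 161, 169.8 and 187 in control and 240.0, 201, 178, 185 and 225 in renin hearts on the high-fat diet. In CPM all 6 chow renin hearts lay below all chow control hearts and below all high-fat renin hearts. In TPM chow renin (129 to 153) overlapped with chow control (138 to 173) and with high-fat renin (151 to 220). Mean TPM was 138 ± 8.12 in chow renin and 135 ± 10.9 in high-fat control. On chow it fell with renin (-0.29 ± 0.08, adjusted p = 0.0147), and on the high-fat diet it rose (0.25 ± 0.08, adjusted p = 0.0323). The interaction was 0.55 ± 0.11, adjusted p = 0.00137, and high-fat renin exceeded chow renin by 1.37-fold (0.45 ± 0.08, adjusted p = 8.70e-05). The summed fibroblast markers lay, like Slc25a5 in CPM, higher in every high-fat renin heart than in any chow renin heart (627 to 939 against 415 to 626 CPM). Taken singly, Col1a1 and Col1a2 did so. Dcn (254 to 350 against 203 to 341) and Pdgfra (30.9 to 40.6 against 24.1 to 38.3) overlapped. The part of these markers in the Slc25a5 result was not tested. High-fat renin did not differ from chow control by the test (0.16 ± 0.08, adjusted p = 0.256). The interaction and the difference between the renin groups were called whichever single library was left out. The fall on chow was lost without chow control replicates 1 and 2 and chow renin replicate 3 (adjusted p = 0.0509 to 0.102), and the rise on the high-fat diet without high-fat control replicates 1, 3 and 4 and high-fat renin replicates 1, 2 and 5 (adjusted p = 0.0506 to 0.146). With the central nervous score the interaction was 0.41, adjusted p = 0.999.

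The balance of the 2 ADP/ATP carriers, a ratio chosen after the values were seen and given as a description, was highest in high-fat renin. Slc25a5 TPM was 7.78% ± 0.54 of Slc25a4 TPM in chow control (n = 4, 7.08% to 8.38%), 7.40% ± 0.44 in chow renin (n = 6, 6.70% to 7.85%) and 8.25% ± 0.53 in high-fat control (n = 6, 7.20% to 8.70%). In high-fat renin it was 10.9% ± 1.18 (n = 5, 9.75% to 12.4%), above every other heart. The family's processed copy Slc25a5-ps and the similarity of the 2 genes leave some uncertainty in how reads were divided.

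**Figure D3:**
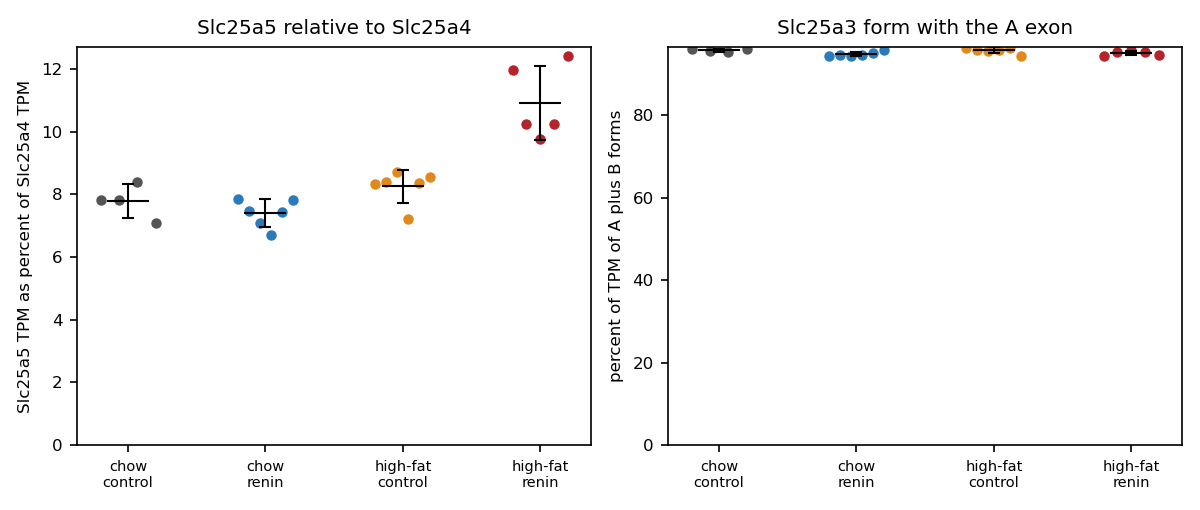
Left, Slc25a5 TPM as a percentage of Slc25a4 TPM in each heart; right, the TPM of Slc25a3 transcripts with the A exon as a percentage of that of transcripts with the A or the B exon. Points are hearts (n = 4, 6, 6 and 5), bars the mean and SD; the 5 high-fat renin hearts lie at 9.75% to 12.4% on the left, above all others, and all hearts lie between 94.3% and 96.3% on the right.

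The ATP-Mg/phosphate carriers, which respond to calcium and set the size of the matrix adenine nucleotide pool, had 2 of their 3 tested members called in at least 1 comparison, beside 33.6% of all genes. Slc25a24 measured 7.57, 7.78, 7.84 and 6.54 CPM in control and 7.99, 9.17 and 10.6 in renin hearts on chow, and 7.23, 7.35 and 8.29 in control and 8.05, 8.19, 7.64, 7.25 and 7.29 in renin hearts on the high-fat diet, and every chow renin heart lay above every chow control heart. It rose with renin on chow (0.30 ± 0.09, adjusted p = 0.0221) and was lower in high-fat renin than in chow renin (-0.25 ± 0.08, adjusted p = 0.0257). The first call was lost without chow control replicate 4 (adjusted p = 0.108), the second without high-fat renin replicates 4 and 5 (adjusted p = 0.0566 to 0.0675). Slc25a23 rose with renin on the high-fat diet (0.18 ± 0.06, adjusted p = 0.0464), from 49.7 ± 3.57 CPM (n = 6) to 56.1 ± 1.57 (n = 5), a change of 1.13-fold that was called in only 1 of the 11 fits with 1 library left out, that without high-fat control replicate 3, and had an adjusted p of 0.0512 to 0.119 in the others. With upper-quartile factors it was 0.16, adjusted p = 0.0968. Slc25a25 was called in no comparison.

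Among the carboxylate carriers 1 of 3 tested members was called in at least 1 comparison, beside 33.6% of all genes. Slc25a11, the oxoglutarate/malate carrier of the malate-aspartate shuttle, measured 436, 434, 397 and 455 CPM in control and 344, 374 and 404 in renin hearts on chow, and 378, 402 and 454 in control and 360.0, 399, 370.4, 370.0 and 362 in renin hearts on the high-fat diet. Chow control and chow renin overlapped in a single pair of hearts, chow control replicate 3 and chow renin replicate 4. Slc25a11 fell with renin on chow (-0.21 ± 0.06, adjusted p = 0.0283), and this was lost without chow control replicates 1, 2 and 4 and chow renin replicates 1, 3, 5 and 6 (adjusted p = 0.0608 to 0.11) and with upper-quartile factors (-0.18, adjusted p = 0.0782). The dicarboxylate carrier Slc25a10 measured 16.2 ± 2.32 CPM in control (n = 4) and 12.6 ± 1.73 in renin hearts (n = 6) on chow, and 12.2 ± 0.945 in control (n = 6) and 12.4 ± 2.62 in renin hearts (n = 5) on the high-fat diet. None of its differences from chow control was called (renin on chow -0.36 ± 0.13, adjusted p = 0.0574, diet alone -0.40 ± 0.13, adjusted p = 0.237, combined model -0.39 ± 0.13, adjusted p = 0.0696). The citrate carrier Slc25a1, which exports citrate for fatty acid synthesis, was called in no comparison.

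Of the 8 tested amino acid carriers, 2 fell in the combined model (Slc25a12 and Slc25a29), where 4.25% of all genes fell. In that comparison 7 of the 8 had a log2 fold change below 0, with a median of -0.23, beside 47.4% of all genes below 0 and a median of 0.01. Slc25a12, the calcium-activated aspartate/glutamate carrier that is the main one of heart, works with Slc25a11 in the malate-aspartate shuttle, which carries the electrons of cytosolic NADH into the matrix. It measured 226.9, 230.1, 202 and 211 CPM in control and 174, 188 and 192 in renin hearts on chow, and 176, 209 and 224.4 in control and 185, 190.1, 193, 182 and 174 in renin hearts on the high-fat diet. Every heart of both renin groups lay below every chow control heart. It fell with renin on chow (-0.23 ± 0.06, adjusted p = 0.0107) and in the combined model (-0.23 ± 0.06, adjusted p = 0.0269), the same size in both. The first call was lost without chow control replicates 1 and 2 and chow renin replicates 3 and 5 (adjusted p = 0.0502 to 0.0829), the second without chow control replicates 1, 2 and 4 and high-fat renin replicates 1 and 5 (adjusted p = 0.054 to 0.0951).

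The liver-type aspartate/glutamate carrier Slc25a13 was called in no comparison. It measured 148, 144, 128 and 146.8 CPM in control and 97.1, 114 and 129 in renin hearts on chow, and 73.8, 105 and 128 in control and 121, 130.0, 99.6, 91.6 and 117 in renin hearts on the high-fat diet. It was the 1 member whose hearts did not overlap between high-fat control and chow control (-0.44 ± 0.12, adjusted p = 0.152). The glutamate carrier Slc25a22 had the largest uncalled change of the combined model (-0.68 ± 0.21, adjusted p = 0.0512), with 57.4, 67.9, 56 and 59.1 CPM in chow control and 27.8, 23.8, 43, 57.9 and 35.4 in high-fat renin, where hearts differed by more than 2-fold among themselves.

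Slc25a29, a carrier of basic amino acids, had the largest change of the combined model. It measured 11.3, 12.4, 9.55 and 9.07 CPM in control and 7.57, 8.13 and 9.42 in renin hearts on chow, and 6.41, 8.19 and 10.3 in control and 4.76, 5.8, 7.14, 7.29 and 5.09 in renin hearts on the high-fat diet. Every high-fat renin heart lay below every heart of both chow groups, and high-fat renin overlapped with high-fat control. The fold was 0.570 in the combined model (-0.81 ± 0.14, adjusted p = 0.00132), where it was called whichever single library was left out. Slc25a29 was also lower in high-fat renin than in chow renin (-0.45 ± 0.13, adjusted p = 0.0106), and this too was called in every such fit, and lower than in high-fat control (-0.45 ± 0.13, adjusted p = 0.0257), which was lost without high-fat control replicates 5 and 6 and high-fat renin replicates 1, 2 and 5 (adjusted p = 0.052 to 0.0875). Renin on chow gave -0.36 ± 0.13, adjusted p = 0.074, diet alone -0.37 ± 0.13, adjusted p = 0.303 and the interaction -0.09 ± 0.18, adjusted p = 0.839, none of them called. With the clock score the combined model's value was -0.51, adjusted p = 0.631. Its neighbour Slc25a47, which starts from the other side of the same 162 bases, measured 3.25 ± 0.709 CPM in chow control (n = 4) and 3.18 ± 0.322 in high-fat renin (n = 5) and was called in no comparison (-0.03 ± 0.17, adjusted p = 0.944 in the combined model).

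Slc25a18, the other glutamate carrier, is known for its expression in brain astrocytes, and in these hearts it had few reads. It had 388 reads in all 21 libraries. It measured 0.249, 0.444, 0.415 and 0.533 CPM in control and 0.887, 1.3 and 1.73 in renin hearts on chow, and 0.396, 0.541 and 0.658 in control and 0.548, 0.464, 0.431, 0.523 and 0.523 in renin hearts on the high-fat diet. Every chow renin heart lay above every other heart. It rose 3.15-fold with renin on chow (1.65 ± 0.27, adjusted p = 6.88e-05), was lower in high-fat renin than in chow renin (-1.38 ± 0.23, adjusted p = 9.65e-05) and had an interaction of -1.77 ± 0.37, adjusted p = 0.00171, all called whichever library was left out. These were the largest log2 fold changes of any member. Slc25a18 moved with the central nervous markers, of which 11 of 11 were higher in chow renin than in chow control and 11 of 11 lower in high-fat renin than in chow renin. With that score as a covariate renin on chow gave 1.24, adjusted p = 0.999. The ornithine carrier Slc25a15, the glycine carrier Slc25a38 and the branched-chain amino acid carrier Slc25a44 were called in no comparison.

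Slc25a20, which takes acylcarnitines into the matrix in exchange for carnitine and so feeds fatty acid oxidation, had its lowest values on chow. It measured 194, 189.7, 161 and 201 CPM in control and 165, 173 and 226.2 in renin hearts on chow, and 189, 240.3 and 281 in control and 208, 248, 229.7, 227.1 and 205 in renin hearts on the high-fat diet. All 5 high-fat renin hearts lay above all chow control hearts, and 1 of 6 high-fat control hearts fell within the chow control range. It was higher in high-fat renin than in chow renin (0.30 ± 0.09, adjusted p = 0.0214). The difference between high-fat control and chow control was 0.37 ± 0.10, adjusted p = 0.152, and between high-fat renin and chow control 0.26 ± 0.10, adjusted p = 0.117, neither called by edgeR. The call between the renin groups was lost without chow renin replicates 1, 2, 3 and 5 and high-fat renin replicate 2 (adjusted p = 0.0513 to 0.0884) and with upper-quartile factors (0.24, adjusted p = 0.057), and its sign changed with the central nervous score (-0.19, adjusted p = 0.999). Its partner enzyme Cpt2, which reforms acyl-CoA inside the matrix, was also higher in high-fat renin than in chow renin (0.25 ± 0.09, adjusted p = 0.0463).

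**Figure D4:**
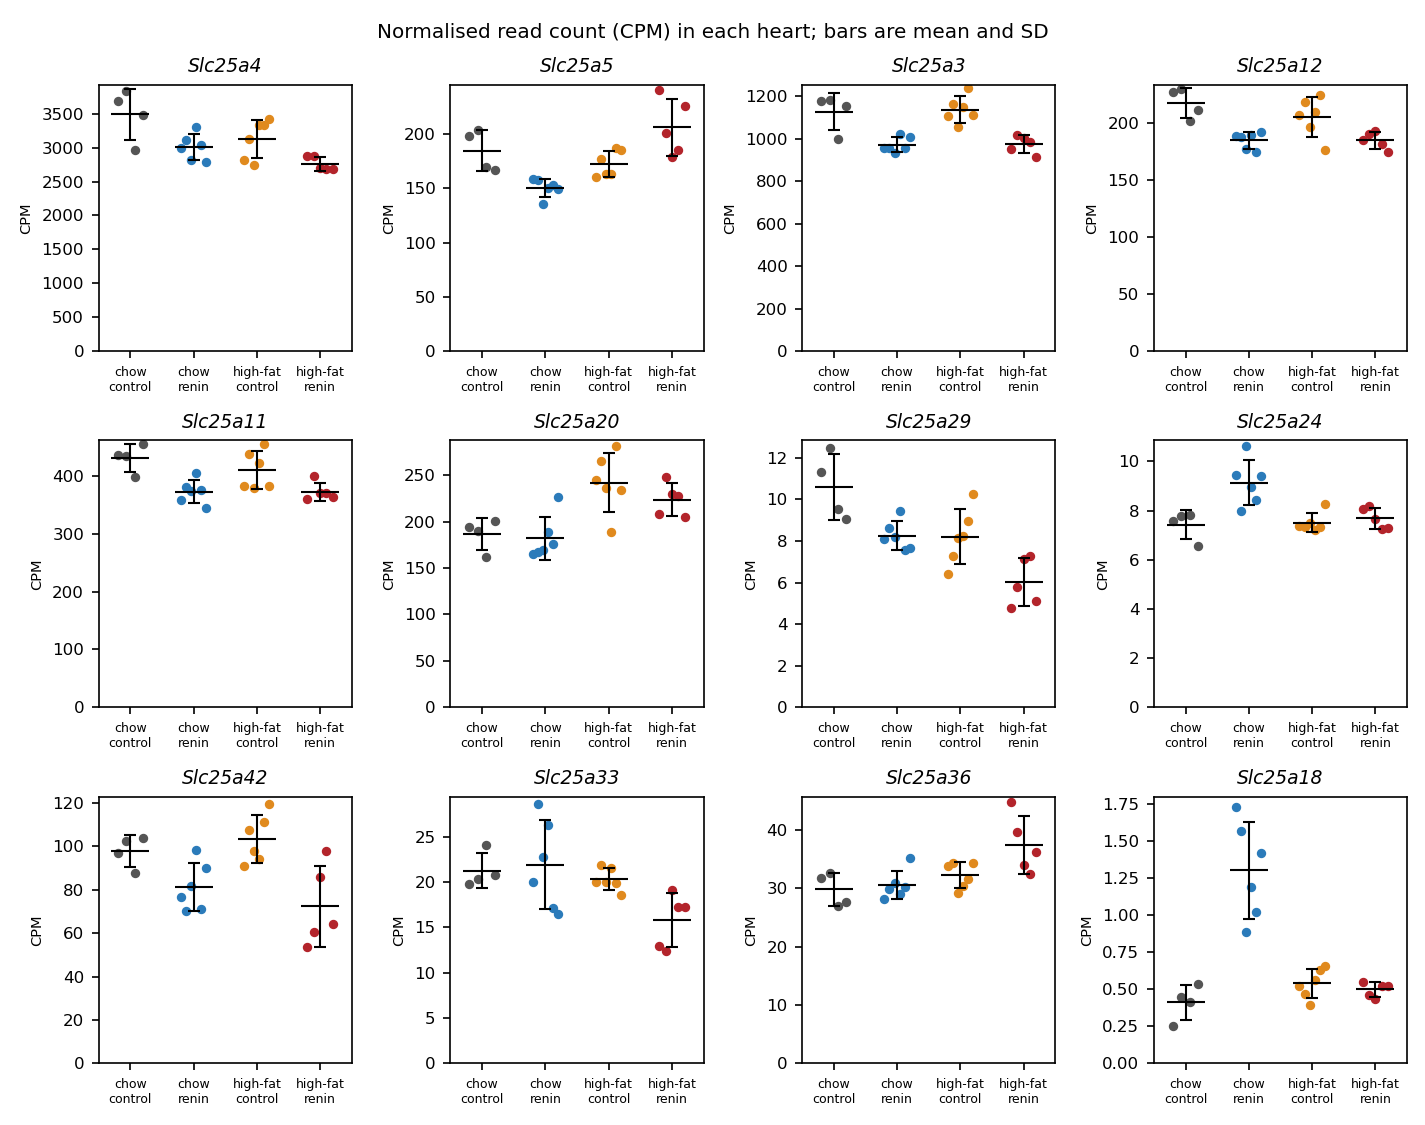
Normalised read count (CPM, y, from 0) of 12 called Slc25a genes in each heart (points), by group (x; n = 4, 6, 6 and 5), with the mean and SD as bars. Slc25a5 is low in chow renin and high in high-fat renin, Slc25a18 is high in chow renin, and Slc25a29 is lowest in high-fat renin.

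Among the cofactor and nucleotide carriers, Slc25a36 rose in the combined model. Slc25a32, Slc25a36 and Slc25a51 were higher, and Slc25a33 lower, in high-fat renin than in chow renin.

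Slc25a42, the carrier of coenzyme A, measured 97.1, 103, 87.5 and 104 CPM in control and 70.3, 79.3 and 98.2 in renin hearts on chow, and 90.8, 103 and 119.7 in control and 53.5, 60.5, 85.8, 97.7 and 64 in renin hearts on the high-fat diet. High-fat renin hearts were spread widely, and replicate 4 lay within the high-fat control range. Slc25a42 fell with renin on the high-fat diet to 0.699 of its level (-0.52 ± 0.13, adjusted p = 0.0136), and the call stood whichever library was left out, with a highest adjusted p of 0.0490. It was lost with the clock score (-0.29, adjusted p = 0.574) and with only the 2 groups compared (-0.52, adjusted p = 0.0593). The other comparisons of Slc25a42 were not called, the combined model at -0.43 ± 0.14, adjusted p = 0.0591.

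Slc25a33 and Slc25a36, the carriers of pyrimidine nucleotides used for mitochondrial DNA and RNA, went in opposite directions. Slc25a33 measured 16.5, 21.4 and 28.6 CPM in chow renin and 12.9, 12.3, 19.1, 17.3 and 17.2 in high-fat renin, overlapping, beside 19.8, 20.3, 24.1 and 20.7 in chow control. It was lower in high-fat renin than in chow renin (-0.47 ± 0.13, adjusted p = 0.0111), whichever library was left out, but with the central nervous score the difference changed sign (0.88, adjusted p = 0.999). Slc25a36 measured 31.8, 32.7, 27 and 27.6 CPM in chow control, 28.2, 30 and 35.2 in chow renin and 44.8, 39.7, 34, 32.4 and 36.2 in high-fat renin. Its groups overlapped. It was higher in high-fat renin than in chow control (0.33 ± 0.09, adjusted p = 0.0249) and than in chow renin (0.29 ± 0.08, adjusted p = 0.00931). The first call was lost without chow control replicates 3 and 4 and high-fat renin replicates 1 and 2 (adjusted p = 0.0591 to 0.0943) and the second without high-fat renin replicate 1 (adjusted p = 0.0729). With the central nervous score the second changed sign (-0.19, adjusted p = 0.999).

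Smaller changes were called for 2 more cofactor carriers. Slc25a51, which imports NAD, was higher in high-fat renin (71.8, 62.8, 61.1, 61.2 and 60.8 CPM) than in chow renin (54.9, 57.4 and 58.4), with no overlap (0.16 ± 0.06, adjusted p = 0.0448). Chow control hearts, at 66.2, 62.4, 62.2 and 62 CPM, also lay above every chow renin heart (chow renin against chow control -0.15 ± 0.06, adjusted p = 0.102) and overlapped with high-fat renin (high-fat renin against chow control 0.01 ± 0.06, adjusted p = 0.968). Slc25a32, linked to folate and flavin transport, was higher in high-fat renin (8.6, 8.08, 6.93, 8.09 and 8.47 CPM) than in chow renin (6.28, 7.02 and 7.11), with overlap (0.23 ± 0.08, adjusted p = 0.0426), beside 6.77, 5.89, 6.75 and 7.18 in chow control (high-fat renin against chow control 0.27 ± 0.09, adjusted p = 0.0657). Neither call was stable to leaving out a heart: the call of Slc25a51 was lost without chow renin replicates 1, 2, 3, 4, 5 and 6 and high-fat renin replicates 1, 2 and 5 (adjusted p = 0.0501 to 0.332), and that of Slc25a32 without chow renin replicates 1, 2, 3, 4, 5 and 6 and high-fat renin replicates 1, 2, 4 and 5 (adjusted p = 0.0554 to 0.163). With upper-quartile factors they were 0.10, adjusted p = 0.172 and 0.17, adjusted p = 0.134. With the central nervous score the difference of Slc25a51 changed sign (-0.12, adjusted p = 0.999). Slc25a39 measured 84.5, 84, 79.7 and 83.6 CPM in chow control and 66, 73.1 and 77.7 in chow renin, which did not overlap but were not called (-0.19 ± 0.08, adjusted p = 0.134). Slc25a16, Slc25a17, Slc25a26, the carrier of S-adenosylmethionine, and Slc25a40 were called in no comparison.

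Of the 2 iron importers, mitoferrin-2 (Slc25a28) was lower in high-fat renin (16.9, 21.8, 29, 24 and 23.6 CPM) than in chow renin (24.9, 27.7 and 31.7), with overlap (-0.27 ± 0.10, adjusted p = 0.0499), beside 24.5, 26.6, 28.6 and 28 in chow control (high-fat renin against chow control -0.22 ± 0.11, adjusted p = 0.222). The call was lost without chow renin replicates 1, 2 and 4 and high-fat renin replicates 1, 2, 4 and 5 (adjusted p = 0.0558 to 0.112), and the sign changed with the central nervous score (0.32, adjusted p = 0.999). Mitoferrin-1 (Slc25a37), the form of developing red cells, was called in no comparison. The uncoupling-protein relatives Slc25a14, Slc25a27 and Slc25a30 were not called either. The nearest was Slc25a14, lower in high-fat renin than in chow renin (-0.58 ± 0.21, adjusted p = 0.0522).

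Among members without a settled role in heart, Slc25a34 was called. It measured 195, 190.1, 191 and 209 CPM in control and 180.5, 193 and 207.3 in renin hearts on chow, and 163, 197 and 209.8 in control and 144, 159, 183, 186 and 155 in renin hearts on the high-fat diet. Every high-fat renin heart lay below every chow control heart, although that comparison missed the threshold (-0.25 ± 0.08, adjusted p = 0.0509). Slc25a34 was lower in high-fat renin than in high-fat control (-0.23 ± 0.07, adjusted p = 0.0366) and than in chow renin (-0.22 ± 0.07, adjusted p = 0.0241). The first call was lost without high-fat control replicates 1, 2, 3, 4 and 5 and high-fat renin replicates 1, 2 and 5 (adjusted p = 0.0543 to 0.144), and the second without chow renin replicates 2 and 4 and high-fat renin replicates 1, 2 and 5 (adjusted p = 0.0532 to 0.0714). With the central nervous score the second changed sign (0.19, adjusted p = 0.999). Slc25a35, Slc25a45, Slc25a46, Slc25a47 and Slc25a53 were called in no comparison.

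The carriers work with other proteins of the membranes and matrix, and 33 of a list of 34 such partner genes were tested. In the combined model 0 rose and 4 fell, beside 8.29% of all genes called. Both aspartate aminotransferases, which act in the malate-aspartate shuttle, were among the 4, while the shuttle's malate dehydrogenases were not called (Mdh1 -0.39 ± 0.18, adjusted p = 0.201; Mdh2 -0.11 ± 0.07, adjusted p = 0.324). Got1 went from 786 ± 82.8 CPM (n = 4) to 614 ± 35.7 (n = 5; -0.35 ± 0.07, adjusted p = 0.00309) and Got2 from 982 ± 39.6 to 810.4 ± 35 (-0.28 ± 0.07, adjusted p = 0.0158). The others were the pyruvate carrier subunit Mpc1 (-0.25 ± 0.08, adjusted p = 0.043) and the sideroflexin Sfxn2 (-0.59 ± 0.18, adjusted p = 0.0419). For renin on chow 1 rose and 6 fell, beside 10.1% of all genes higher and 3.36% lower. The riser was Sfxn5 (0.76 ± 0.15, adjusted p = 5.39e-04), a sideroflexin known from brain. Among those that fell were the outer membrane channels Vdac2 (-0.24 ± 0.06, adjusted p = 0.00371) and Vdac3 (-0.24 ± 0.05, adjusted p = 0.00195) and Got1 (-0.30 ± 0.07, adjusted p = 0.0022). Letm1 and the calcium uniporter pore Mcu fell as well.

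For renin on the high-fat diet 0 rose and 5 fell, namely Vdac3, Got1, Got2, Mpc2 and Sfxn5, beside 6.07% of all genes higher and 5.08% lower. In high-fat renin against chow renin 4 were higher and 1 lower (9.80% and 12.8% of all genes), and in the interaction 3 were higher and 1 lower (3.14% and 7.30%). Timm22, the pore that inserts SLC25 carriers into the inner membrane, and Timm10, a chaperone on the way to it, were among those higher in both. The other Timm genes of the list, Timm9, Timm10b and Timm29, and Agk were called in neither (adjusted p = 0.131 to 0.768 for the interaction). Timm22 measured 19.4 ± 1.5 CPM in control (n = 4) and 16.3 ± 0.805 in renin hearts (n = 6) on chow, and 19 ± 2.0 in control (n = 6) and 22 ± 2.72 in renin hearts (n = 5) on the high-fat diet, with an interaction of 0.46 ± 0.12, adjusted p = 0.0118. Timm10 had an interaction of 0.52 ± 0.16, adjusted p = 0.0381. Sfxn5 was the 1 lower gene in both (-1.21 ± 0.20, adjusted p = 1.33e-04 for the interaction) and, like Slc25a18, stood highest in chow renin together with the central nervous markers; their part in it was not tested.

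The authors' deposited table holds a comparison headed as high-fat diet with virus, whose reference group is not stated. In the authors' deposited table, 9 of 43 members with an adjusted p had one under 0.05, 8 lower and 1 higher, beside 8.04% of all 16122 genes. The authors' deposited table lists Slc25a29 at a log2 fold change of -0.72 (adjusted p = 0.000193), Slc25a4 at -0.29 (adjusted p = 0.000697), Slc25a12 at -0.21 (adjusted p = 0.00465) and Slc25a3 at -0.18 (adjusted p = 0.00772), the same 4 members that fell in the combined model above. It also lists Slc25a11, Slc25a42, Slc25a22 and Slc25a34 as lower and Slc25a32 as higher, which were not called in the combined model here, and does not call Slc25a36.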

How the data were processed

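Heart RNA of 21 mice was sequenced. Per the submitters' processing notes, reads were quantified with Salmon 1.10.2 and tested with DESeq2 1.40.2 on GRCm38/mm10; options are not given in the sources used here. Per the file headers and values, the authors' deposited transcript tables hold estimated counts and TPM per transcript. The deposited gene matrix holds a normalized signal per library (how it was scaled is not stated) and, per the file headers, the log2 fold changes and adjusted p-values of 1 comparison by the authors.

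Transcripts were matched to GENCODE M21 and the deposited estimated counts summed per gene and rounded to whole numbers, in place of the raw counts the tests were laid out for. Of 23718 genes with reads, filterByExpr kept 15216, with 99.96% of reads. Tests used edgeR 4.0.16 (R 4.3.3) with TMM factors, 1 fit with a term per group over 21 libraries, robust glmQLFit and its quasi-likelihood F test, with Benjamini-Hochberg adjustment over all genes tested. The common biological coefficient of variation was 0.154. Standard errors were taken from F: size of the log2 fold change over the root of F. CPM are TMM-normalized. The depth was 18.7 to 29.3 M reads per library; read counts of low members carry counting error beside the spread between hearts. The fit was tested on simulated data for high-fat renin against chow control (15040 genes): 79.8% of genes changed by 1 and 94.9% of those changed by 2 on the log2 scale were called, and 3.91% of calls were unchanged genes. Changes below 1 were not simulated, so the check gives no rate for the smaller sizes of most calls here.

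Alternatives were upper-quartile factors, no filter on low counts, the replicate block, clock, atrial and central nervous scores as covariates, only the 2 groups compared, DESeq2 1.42.0, limma 3.58.1 on log2 of the deposited signal with a pseudocount of 1 or 0.1 and a mean signal of at least 1, and leaving out each library. Fits without the 5 libraries with high atrial markers and with libraries thinned to the smallest depth were chosen after seeing the data. The rule names every member called in at least 1 comparison, the 10 members of highest mean TPM and the partner genes called. Other values were chosen after they were seen. The members, partner genes and marker lists were chosen with earlier results of these data known. Motif shares are over RefSeq windows of GRCm38.p6. Protein sequences were not used here. The single results of 1 member and 1 partner gene are not reported here; both stay in the fits and in the counts over genes.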

Additional observations from a re-analysis of the deposited data

Results flagged for a closer look

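The effect of renin differed between the diets, by the interaction test, for Slc25a18 (-1.77 on the log2 scale) and Slc25a5 (0.55). In CPM, the 6 chow renin hearts lie above every chow control heart for Slc25a18 and below every one for Slc25a5. In TPM the first holds as well, while for Slc25a5 the groups overlap.

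Single hearts stood far from the rest of their group in 11 of 80 groups checked (20 members, 4 groups each, CPM). The cut-off is set to flag about 1 in 20 groups of independent, normally distributed values. The 80 groups share the same hearts, so the count cannot be compared with that rate. High-fat control replicate 6 accounts for 4 of them: Slc25a34 at 163 CPM (others 193 to 209.8), Slc25a22 at 79.4 (others 44 to 55.8), Slc25a28 at 34.2 (others 25.5 to 27.7) and Slc25a24 at 8.29 (others 7.23 to 7.48). Chow control replicate 3, which had high atrial markers, had Slc25a3 at 996 (others 1152 to 1180.4). High-fat control replicate 3, also with high atrial markers, had Slc25a23 at 56.6 (others 47.3 to 50.1). Slc25a51 was high in chow control replicate 1 at 66.2 (others 62.0 to 62.4) and in high-fat renin replicate 1 at 71.8 (others 60.8 to 62.8). The remaining hearts were high-fat renin replicate 2 for Slc25a11 at 399 (others 360.0 to 370.4), chow renin replicate 4 for Slc25a22 at 69.1 (others 44.8 to 51.1) and chow renin replicate 6 for Slc25a36 at 35.2 (others 28.2 to 30.8).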

How the results depend on the processing

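Counts of called members are given in the order combined model (5), renin on chow (7), diet alone (0), renin on the high-fat diet (6), diet under renin (12) and interaction (3). Each count below is followed in brackets by the share of all genes called in the same fit. The counts that moved by over 1.5 times were, for the combined model (8.29% of all genes), 8 with upper-quartile factors (8.60%), 3 with no filter on low counts (4.13%), 9 with the replicate block (8.71%), 0 with the clock score (0%) and 10 with DESeq2 (10.1%). For renin on chow (13.5%) they were 4 with the clock score (10.5%), 0 with the central nervous score (0.151%), 12 with only the 2 groups compared (16.8%) and 3 without the 5 libraries with high atrial markers (10.3%). For diet alone (0.0657%) DESeq2 called 1 (0.719%). For renin on the high-fat diet (11.1%) 0 were called with the clock score (0.0526%) and 0 with only the 2 groups compared (3.81%). For diet under renin (22.6%) the clock score gave 7 (15.9%) and the central nervous score 0 (0.210%). For the interaction (10.4%) the central nervous score gave 0 (0.158%), and limma on the deposited matrix 1 with a pseudocount of 1 (4.77%) or 0.1 (4.52%). Leaving out 1 library gave 2 to 10 (3.67% to 11.4%), 3 to 9 (9.83% to 14.8%), 0 to 1 (0% to 0.375%), 1 to 7 (4.58% to 15.8%), 7 to 13 (16.3% to 24.2%) and 3 to 4 (7.98% to 12.9%). With the central nervous score, 6 differences of high-fat renin from chow renin changed sign, none of them then called: Slc25a33 0.88, Slc25a36 -0.19, Slc25a20 -0.19, Slc25a28 0.32, Slc25a34 0.19 and Slc25a51 -0.12. The cause of these moves was not tested. Of the 33 calls, 27 were kept with upper-quartile factors, 25 with no filter on low counts, 29 with the replicate block, 31 with DESeq2, 32 with the atrial score, 13 with the clock score, 8 with the central nervous score, 23 without the 5 libraries with high atrial markers and 28 with libraries thinned to the smallest depth. Of the 30 calls outside the interaction, 19 were kept with only the 2 groups compared. Of 30 calls with a value in limma, 20 were kept with either pseudocount. The replicate numbers were not taken as pairing, which asked for a correlation over 0.1 in every pair: over 28 pairs of the same number the correlation of deviations was -0.23 to 0.42 with a median of 0.077 and 11 over 0.1, against a median of -0.025 and 21 of 136 over 0.1 for other numbers. Of 21 libraries 7 correlated best with 1 of their own number, and replicate 3 had high atrial markers in all 4 groups. Depth limits the 5 untested members and Slc25a18.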
